A study of Mus musculus with 10 samples.

Results

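The 9 genes described here encode proteins that astrocytes use to handle water, potassium and glutamate at their endfeet and around synapses, and to couple to each other. They were chosen by name, for water, potassium, glutamate, gap junction and dystroglycan anchoring functions. All 9 were found among the 55401 genes of the deposited table, and all 9 were among the 16316 genes expressed highly enough to be tested. RNA sequencing of cerebral cortex gave 10 libraries, 5 from the group given a traumatic brain injury (TBI) and 5 from a control group. That control group is Sham in the titles and naive in the design text, so whether these mice had surgery is not settled. Treatment with TBI or Sham is the one factor the labels give, and injury model, time after injury, strain, age and sex are not given in the sources used here. The design text counts 5 mice in each group, so n = 5 per group, and ± is the SD over 5 libraries.

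Astrocytes wrap blood vessels with endfeet, where the water channel encoded by Aqp4 is held to the basal lamina by a dystrophin-type complex whose laminin receptor is encoded by Dag1. Around synapses the same cells take up glutamate through transporters encoded by Slc1a2 and Slc1a3, turn it into glutamine with the enzyme encoded by Glul, and clear potassium through the channel encoded by Kcnj10. The connexins encoded by Gja1 and Gjb6 join astrocytes into a network, and Mlc1 encodes a membrane protein of astrocyte contacts that takes part in cell volume control.

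In injured cortex 3 of the 9 genes rose and 0 fell at an adjusted p under 0.05 (edgeR quasi-likelihood test, Benjamini-Hochberg over all 16316 tested genes). For comparison, 4.04% of all tested genes were called in either direction, 3.57% higher and 0.472% lower. The 3 genes that rose were Aqp4, Mlc1 and Dag1, by 1.66-fold, 1.32-fold and 1.32-fold. Levels of these 3 genes did not overlap between the groups, which was also the case for 6.33% of all tested genes in either direction and for 5.6% with the TBI libraries higher. The other 6, Kcnj10, Slc1a2, Slc1a3, Glul, Gja1 and Gjb6, did not pass, with fitted folds of 1.08 to 1.41. All 9 fitted log2 changes were above 0, from 0.11 to 0.73, with a median of 0.35. Over all tested genes the median was -0.01 and 47.3% of changes were above 0. In whole tissue, more cells of a type and more RNA per cell cannot be told apart.

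**Figure D1:**
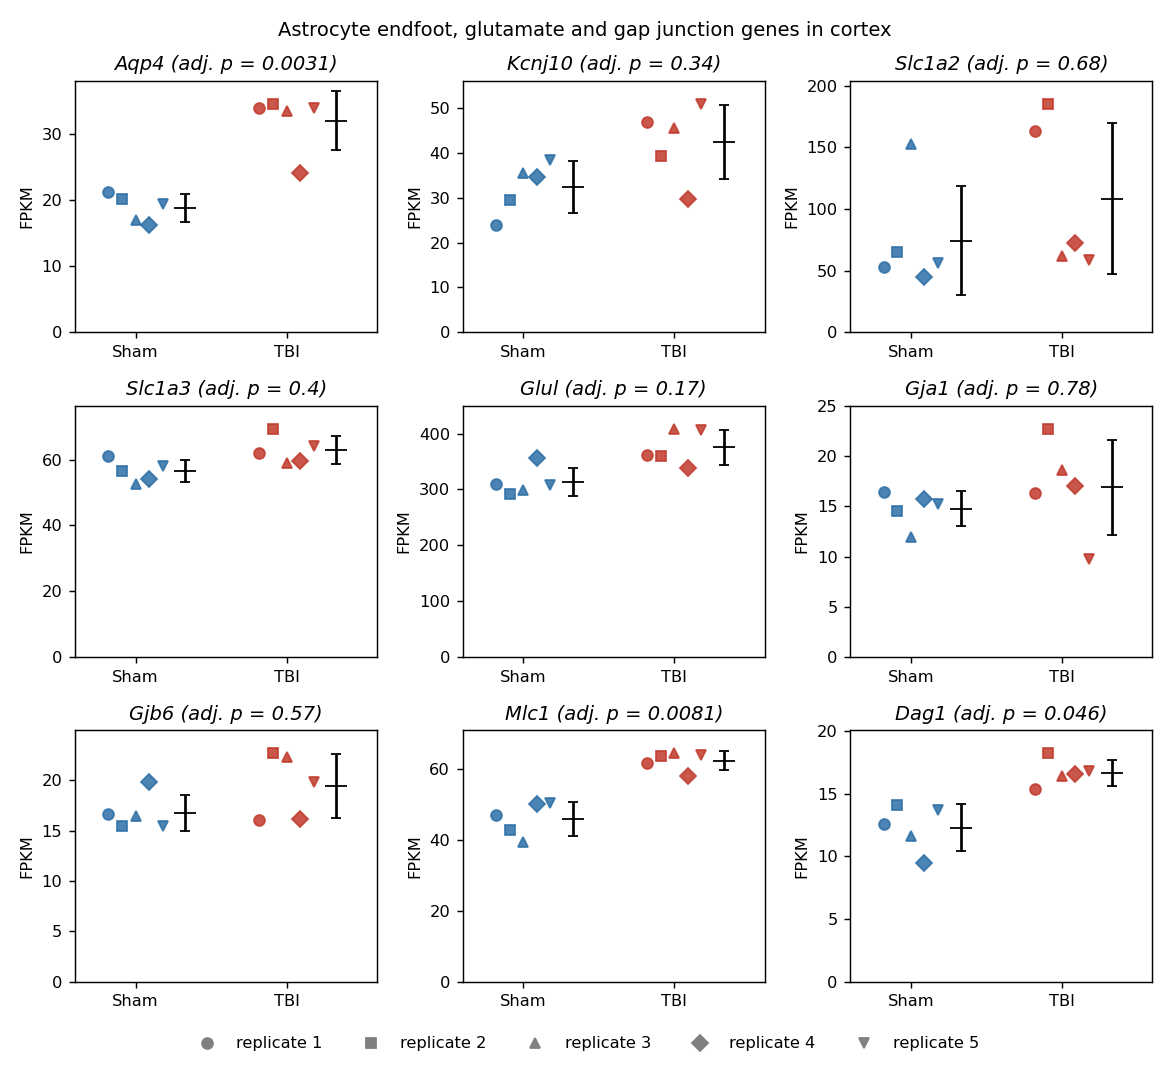
Level of each gene in FPKM (y axis from 0) in the 5 Sham and 5 TBI libraries; each symbol is 1 library, the horizontal mark and bars are the mean and SD, and the adjusted p is from edgeR over all tested genes. Aqp4, Mlc1 and Dag1 show no overlap between groups, and Slc1a2 lies on separate levels in both groups.

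Values are FPKM, fragments scaled by transcript length and by library size, so that levels can be set side by side between genes. Libraries held 47641137 to 71272644 estimated counts, and the lowest estimated count of any of the 9 genes in any library was 2308. Glul had the highest level of the 9 in both groups, at 313 ± 25.4 FPKM in Sham and 375 ± 31.5 FPKM in TBI. In Sham it was followed by Slc1a2, Slc1a3, Mlc1, Kcnj10, Aqp4, Gjb6, Gja1 and Dag1, and the order of the group means was the same in TBI. In Sham the ranges of Slc1a2 and Slc1a3 overlapped, and those of Aqp4, Gjb6, Gja1 and Dag1 each overlapped with the next in order. In TBI the ranges of Aqp4 and Gjb6 were apart, with Aqp4 higher in 5 of 5 libraries. The ranges of Slc1a3 and Mlc1 were apart in Sham and overlapped in TBI, where their means were within 1.01-fold of each other.

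Aqp4 (ENSMUSG00000024411, mm10 chromosome 18, 15389496 to 15410982, minus strand) encodes the main water channel of brain astrocytes. Its level was 34.0, 34.6, 33.4, 24.1 and 34.0 FPKM in TBI replicates 1 to 5 and 21.2, 20.1, 16.9, 16.2 and 19.4 FPKM in Sham replicates 1 to 5. TBI libraries 1, 2, 3 and 5 lay close together, and TBI replicate 4 lay between them and the Sham libraries, still above all 5 of those. The mean went from 18.8 ± 2.12 to 32.01 ± 4.45 FPKM, a log2 change of 0.73 (approximate SE 0.11, edgeR adjusted p = 0.0031), with all 5 TBI libraries above the highest Sham library. With each library left out in turn the log2 change of Aqp4 ranged from 0.69 to 0.83, and edgeR called it higher each time.

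Markers of ependyma and choroid plexus were not level between libraries. The choroid plexus transcript Ttr was at 853 FPKM in TBI replicate 1 and 27.6 FPKM in Sham replicate 3, against 0.24 to 3.84 FPKM in the other libraries. Foxj1, a transcription factor of ciliated ependymal cells, rose from 1.64 ± 0.33 to 3.48 ± 1.098 FPKM (edgeR adjusted p = 0.034), with the groups overlapping. Without TBI replicate 1 and Sham replicate 3, a choice made after the data were seen, Aqp4 was still called higher (log2 change 0.69, edgeR adjusted p = 0.033). That choice took out the libraries high in Ttr and does not address Foxj1. Foxj1 was at 3.17, 3.70 and 4.05 FPKM in TBI replicates 2, 3 and 5, against 1.23 to 2.07 FPKM in Sham. It was lowest of the TBI libraries in replicate 4, at 1.79 FPKM, as was Aqp4. The part of ependymal cells in the Aqp4 result was not tested. Of the 4 fixed ependymal and choroid plexus markers Folr1 and Kl lay below the expression filter and none was at 0 in all libraries. Their summed level was 2.98 to 862 FPKM in TBI and 1.98 to 29.4 FPKM in Sham. Beyond that refit, the part of these cells in the results was not tested.

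Mlc1 (ENSMUSG00000035805, mm10 chromosome 15, 88955884 to 88979007, minus strand) was at 61.5, 63.6, 64.3, 57.8 and 63.8 FPKM in TBI replicates 1 to 5. In Sham replicates 1 to 5 it was at 46.9, 42.8, 39.3, 50.01 and 50.2 FPKM. The TBI libraries lay within a narrow band above every Sham library, with a coefficient of variation of 4.33% in TBI and 10.3% in Sham. The mean went from 45.9 ± 4.73 to 62.2 ± 2.69 FPKM, a log2 change of 0.40 (approximate SE 0.07, edgeR adjusted p = 0.0081). With the replicate number added to the fit as a block, the log2 change was 0.41 and the call was lost (edgeR adjusted p = 0.059).

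Dag1 (ENSMUSG00000039952, mm10 chromosome 9, 108204634 to 108263958, minus strand) encodes dystroglycan, the laminin receptor to which the dystrophin-type complex is tied. It was the least abundant of the 9 genes, at 15.3, 18.2, 16.4, 16.6 and 16.8 FPKM in TBI and 12.6, 14.1, 11.6, 9.43 and 13.7 FPKM in Sham, replicates 1 to 5 in each. Every TBI library was above every Sham library, with 14.1 FPKM the highest Sham and 15.3 FPKM the lowest TBI value. The mean went from 12.3 ± 1.87 to 16.7 ± 1.03 FPKM, a log2 change of 0.40 (approximate SE 0.10, edgeR adjusted p = 0.046). The call of Dag1 was near the threshold: it was lost when any 1 of TBI replicates 1 to 5 or Sham replicates 1, 3 and 5 was left out, with edgeR adjusted p-values up to 0.11, while its log2 change stayed between 0.32 and 0.45.

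**Figure D2:**
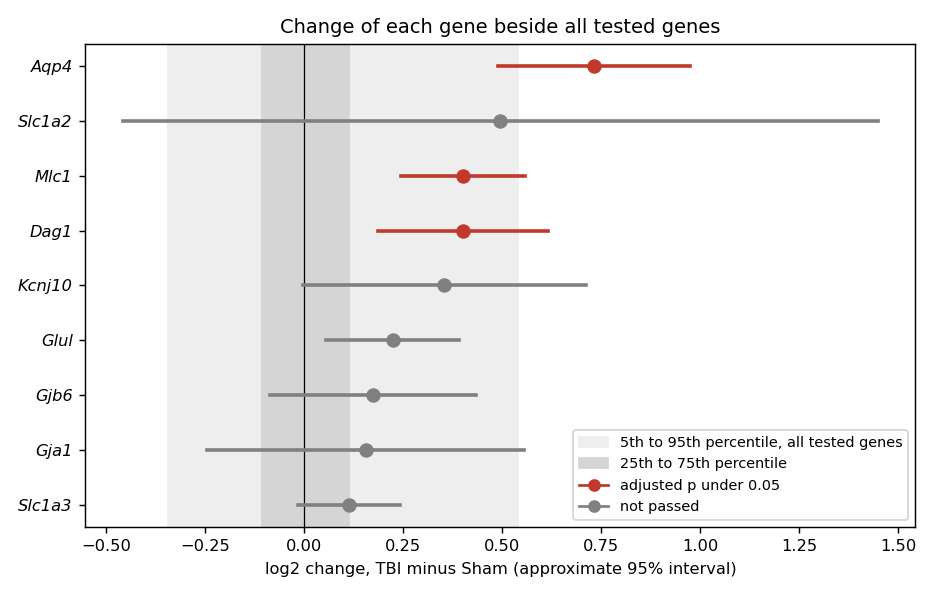
Log2 change of each gene between TBI and Sham (x axis; points, with approximate 95% intervals from edgeR as lines) beside the central ranges of all tested genes (grey bands). Aqp4 had the largest change, 0.73, and Slc1a2 the widest interval, -0.46 to 1.45.

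The sequences around the start sites of the called genes are shown to set the genes that rose beside members that did not pass. Windows run from 250 bases before to 50 bases after the start site and are from RefSeq on GRCm38.p6. The windows searched covered 8 of the 9 genes. None of Aqp4 was among them, so its start site is not described here. Where all windows are named below, the 32851 windows searched are meant, which may not cover every gene. The windows of Mlc1 and Slc1a2 (chr2:102706188-102706487) lie wholly inside the gene bounds of the deposited table. They are therefore not at the outer start of these genes as bounded there. The window of Mlc1 (chr15:88978504-88978803, minus strand) and the first of the pair listed for Dag1 (chr9:108263909-108264208, minus strand) are printed with those of Slc1a3 (chr15:8710758-8711057, minus strand) and Gja1 (chr10:56377050-56377349, plus strand), which hold the STAT and AP-1 matches. Capitals mark matches on either strand. The motifs searched were that of STAT factors, spelled TTCNNNGAA, and that of the dimeric factor AP-1, spelled TGANTCA with any base in the middle. The others were the core promoter element known as the TATA box, spelled TATAAA in the search, then the box named CCAAT after its own letters, and the full palindromic NFI site.
Mlc1: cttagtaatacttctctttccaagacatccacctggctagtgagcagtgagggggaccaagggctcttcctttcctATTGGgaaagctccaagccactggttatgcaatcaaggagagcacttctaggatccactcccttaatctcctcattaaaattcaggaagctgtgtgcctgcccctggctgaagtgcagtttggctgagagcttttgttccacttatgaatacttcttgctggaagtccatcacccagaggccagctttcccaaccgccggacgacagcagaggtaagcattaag
Dag1: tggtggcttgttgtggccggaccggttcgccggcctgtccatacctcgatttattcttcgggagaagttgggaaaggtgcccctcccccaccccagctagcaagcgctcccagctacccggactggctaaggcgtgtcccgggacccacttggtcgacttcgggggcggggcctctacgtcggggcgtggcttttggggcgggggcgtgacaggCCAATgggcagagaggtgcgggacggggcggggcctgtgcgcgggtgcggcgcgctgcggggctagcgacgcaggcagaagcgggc
Slc1a3: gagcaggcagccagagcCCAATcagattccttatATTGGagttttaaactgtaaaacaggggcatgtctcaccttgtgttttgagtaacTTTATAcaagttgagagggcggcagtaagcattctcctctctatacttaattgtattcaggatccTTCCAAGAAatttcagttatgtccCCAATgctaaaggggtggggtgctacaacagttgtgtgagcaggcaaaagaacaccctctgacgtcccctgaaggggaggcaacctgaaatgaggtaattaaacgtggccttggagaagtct
Gja1: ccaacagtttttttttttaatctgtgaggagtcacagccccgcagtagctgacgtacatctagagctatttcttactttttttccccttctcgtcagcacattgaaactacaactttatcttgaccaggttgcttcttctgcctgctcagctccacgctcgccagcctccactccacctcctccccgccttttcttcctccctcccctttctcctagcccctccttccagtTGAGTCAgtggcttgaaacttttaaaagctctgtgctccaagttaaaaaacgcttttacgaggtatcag

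The windows of Mlc1 and Dag1, both of which rose, had little in common by composition. That of Mlc1 had 49.7% G or C and 3 CpG, while that of Dag1 had 69.7% G or C and 30 CpG, where the median over 32851 windows of the same length was 52.7% and 7 CpG. Both held a CCAAT box, as did 5 of the 8 genes and 37.4% of all windows. The GC box (GGGCGG, either strand, not marked by capitals) was present in 4 of the 8 genes, among them Dag1, and in 35.7% of all windows. The STAT motif was found in 1 of the 8 genes, Slc1a3 (TTCCAAGAA, beginning 96 bases before the start site), and in 8.3% of all windows. An AP-1 motif was found in Gja1 alone of the 8 and in 7.81% of all windows, a TATA box in Slc1a3 alone of the 8 and in 13.6%, and the full NFI site in 0 of the 8 and in 0.0365%. None of the capitalised matches overlapped another. Neither Slc1a3 nor Gja1 passed the expression test. A match is a run of letters and not a bound site, and its absence concerns this window only.

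Kcnj10 (ENSMUSG00000044708, mm10 chromosome 1, 172341210 to 172374085, plus strand) encodes the inward rectifier potassium channel that shares the endfoot membrane with the water channel. Its level was 47.0, 39.4, 45.5, 29.7 and 51.0 FPKM in TBI and 23.8, 29.5, 35.6, 34.5 and 38.4 FPKM in Sham. In TBI 4 of 5 libraries were above all Sham libraries, and TBI replicate 4 lay within the Sham range. The mean went from 32.4 ± 5.75 to 42.5 ± 8.27 FPKM, a change of 1.28-fold with an approximate 95% interval of 0.998 to 1.64, and did not pass (edgeR adjusted p = 0.34).

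Slc1a2 (ENSMUSG00000005089, mm10 chromosome 2, 102658659 to 102790784, plus strand) encodes the most abundant glutamate transporter of forebrain astrocytes. It was at 164, 185, 61.5, 72.7 and 58.8 FPKM in TBI and 52.7, 65.0, 153, 44.9 and 56.5 FPKM in Sham, replicates 1 to 5 in each. TBI replicates 1 and 2 and Sham replicate 3 were high, the other 7 libraries were at or below 72.7 FPKM, and the step from 72.7 to 153 FPKM was 2.10-fold. The next widest step between neighbouring libraries among the 9 genes was the 1.39-fold one of Aqp4. The mean of Slc1a2 was 108 ± 61.0 FPKM in TBI and 74.3 ± 44.4 FPKM in Sham (log2 change 0.50, approximate SE 0.43, edgeR adjusted p = 0.68), and the interval of 0.729-fold to 2.73-fold covers changes in both directions. With 1 library left out, the log2 change of Slc1a2 ran from 0.23 without TBI replicate 2 to 0.96 without Sham replicate 3, and edgeR called it in none of these runs. Of these high libraries, TBI replicate 1 and Sham replicate 3 also had the high levels of the choroid plexus transcript Ttr, 853 and 27.6 FPKM. TBI replicate 2 had 0.681 FPKM of Ttr. A link between the levels of Slc1a2 and Ttr was not tested. The gene whose profile over the 10 libraries was nearest to that of Slc1a2 was Mid1ip1. It was picked for this likeness, so shared high libraries follow from the choice. Mid1ip1 was at 35.3, 34.8 and 28.0 FPKM in TBI replicates 1 and 2 and Sham replicate 3. It was likewise high in TBI replicate 4 (31.0 FPKM), against 11.5 to 16.0 FPKM in the remaining libraries.

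Slc1a3 (ENSMUSG00000005360, mm10 chromosome 15, 8634124 to 8710764, minus strand) encodes the other astrocytic glutamate transporter. It was at 62.0, 69.5, 58.9, 59.5 and 64.3 FPKM in TBI and 61.2, 56.5, 52.5, 54.3 and 58.1 FPKM in Sham. The groups overlapped through TBI replicates 3 and 4, which were below Sham replicate 1. The mean was 62.8 ± 4.28 FPKM in TBI and 56.5 ± 3.37 FPKM in Sham, 1.08-fold with an approximate 95% interval of 0.990 to 1.18, and it did not pass (edgeR adjusted p = 0.40). Its interval was the narrowest of the 9 genes.

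Glul (ENSMUSG00000026473, mm10 chromosome 1, 153899944 to 153909723, plus strand) encodes glutamine synthetase, which makes glutamine from glutamate and ammonia. It was at 363, 359.5, 409, 338 and 407 FPKM in TBI and 310, 292, 299, 357 and 307 FPKM in Sham. In TBI 4 of 5 libraries exceeded every Sham library, and TBI replicate 4 lay below Sham replicate 4. The change of 1.17-fold (approximate 95% interval 1.04 to 1.31) had an unadjusted p of 0.014 and did not pass after adjustment (edgeR adjusted p = 0.17). It did pass in limma on FPKM rescaled to a common sum per library (log2 change 0.28, adjusted p = 0.040). The miRNA gene Mir8114 lies within Glul on the same strand and was given 27970 counts over the 10 libraries, so some fragments of the locus may be listed there.

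The connexin genes did not pass. Gja1 (ENSMUSG00000050953, mm10 chromosome 10, 56377330 to 56402513, plus strand) was at 16.3, 22.8, 18.7, 17.0 and 9.75 FPKM in TBI and 16.4, 14.5, 11.9, 15.7 and 15.3 FPKM in Sham. TBI replicates 2, 3 and 4 were above all Sham libraries while TBI replicate 5 was below them all, so that the TBI libraries spread more widely (coefficient of variation 27.9%) than the Sham libraries (11.8%). The fold was 1.11 with an approximate 95% interval of 0.844 to 1.47 (edgeR adjusted p = 0.78).

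Gjb6 (ENSMUSG00000040055, mm10 chromosome 14, 57123303 to 57133611, minus strand) was at 16.1, 22.7, 22.3, 16.2 and 19.8 FPKM in TBI. In Sham it was at 16.6, 15.5, 16.5, 19.8 and 15.4 FPKM, so that TBI replicates 1 and 4 fell within the Sham range. The fold was 1.13 with an approximate 95% interval of 0.942 to 1.35 (edgeR adjusted p = 0.57). In TBI replicate 5 Gjb6 was level with the highest Sham library while Gja1 was below all 5.

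**Figure D3:**
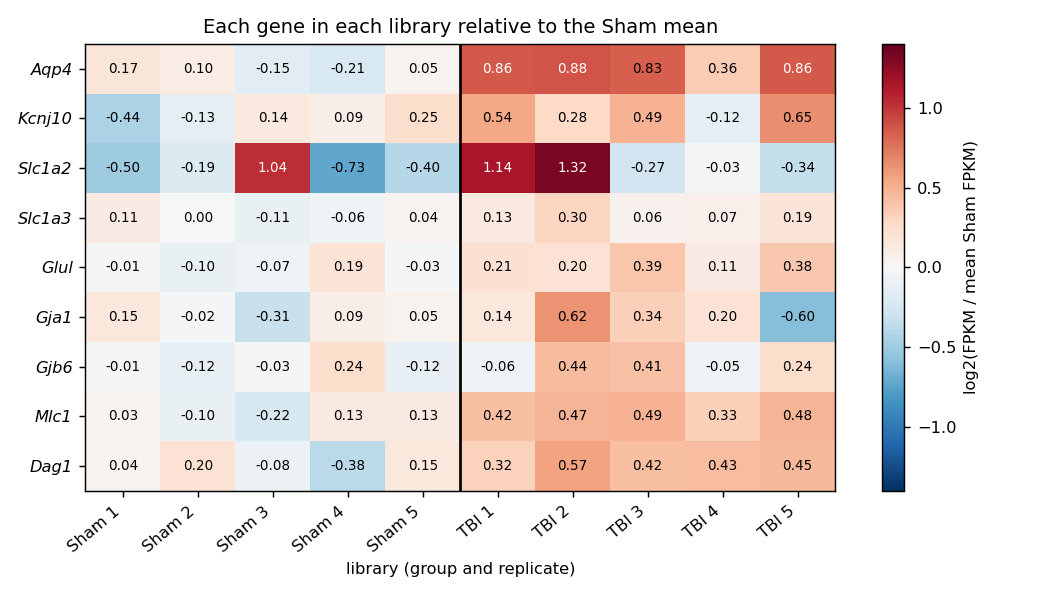
Level of each gene (rows) in each library (columns) as log2 of FPKM over the mean Sham FPKM; red is above and blue below the Sham mean. TBI replicate 2 exceeded the highest Sham library for 9 of 9 genes and TBI replicate 4 for 4 of 9.

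The TBI libraries differed in how many of the 9 genes stood above the highest Sham library. The number was 7, 9, 7, 4 and 7 in TBI replicates 1 to 5, and the share over all tested genes is not given here. TBI replicate 4 exceeded the Sham range for Aqp4, Gja1, Mlc1 and Dag1. Replicates 1, 3 and 5 each missed a different pair, Gja1 and Gjb6, Slc1a2 and Slc1a3, and Slc1a2 and Gja1. The summed level of the 9 genes was 736 ± 69.3 FPKM in TBI and 585 ± 34.5 FPKM in Sham, and Glul had the largest share of it.

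Ratios within a library show whether a pair of genes changed unequally, whatever the depth or scaling of the library. Of 8 ratios compared, 3 differed between the groups in exact two-sided permutation tests adjusted over the 8, for which the smallest unadjusted p is 0.0079. These 3 calls were lost in most runs with 1 library left out: Mlc1/Hepacam stayed under 0.05 only without TBI replicate 5 or Sham replicate 1. Aqp4/Aldh1l1 and Gfap/Aqp4 did so only without TBI replicate 4, TBI replicate 5 or Sham replicate 1, and the highest exact permutation adjusted p of the 3 was 0.085. With 4 against 5 libraries the smallest unadjusted p is also 0.0079. After adjustment over the 8 it passes only if other ratios are low as well. Gfap/Aqp4 did not overlap between the groups, so it was at this floor in every such run. Its lost calls thus depend on the other ratios and do not measure its own stability. Its log2 difference stayed between 1.89 and 2.05. The ratio of Aqp4 to the astrocyte enzyme gene Aldh1l1 was 2.39, 2.26, 1.97, 1.72 and 2.29 in TBI and 1.73, 1.64, 1.52, 1.18 and 1.58 in Sham (exact permutation adjusted p = 0.042). Only TBI replicate 4 fell below the highest Sham value. The ratio of Mlc1 to Hepacam, which encodes the adhesion protein that brings the Mlc1 product to cell contacts, was 2.29 ± 0.18 in TBI and 1.95 ± 0.15 in Sham (exact permutation adjusted p = 0.042), with overlapping groups. Hepacam itself did not pass, at 27.3 ± 2.93 against 23.5 ± 2.64 FPKM (edgeR adjusted p = 0.43).

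The intermediate filament gene Gfap changed much more than Aqp4. The ratio of Gfap to Aqp4 was 9.39, 8.49, 9.20, 6.82 and 6.30 in TBI and 1.902, 2.08, 1.63, 2.55 and 2.09 in Sham, without overlap (exact permutation adjusted p = 0.042). The remaining 5 ratios did not pass with all libraries. Aqp4 over Dag1 was 1.93 ± 0.29 in TBI and 1.54 ± 0.15 in Sham (exact permutation adjusted p = 0.079), and Aqp4 over Kcnj10 was 0.76 ± 0.08 and 0.60 ± 0.18 (exact permutation adjusted p = 0.18). The first passed without TBI replicate 4 (exact permutation adjusted p = 0.021) and the second without Sham replicate 1 (exact permutation adjusted p = 0.032). Glul over Slc1a3 was 5.998 ± 0.67 and 5.56 ± 0.62 (exact permutation adjusted p = 0.41). Slc1a3 over Slc1a2 was 0.72 ± 0.33 and 0.92 ± 0.35 (exact permutation adjusted p = 0.45), a ratio set by the separate levels of Slc1a2. Gja1 over Gjb6 was 0.88 ± 0.23 and 0.89 ± 0.12 (exact permutation adjusted p = 0.88), and in TBI replicate 5 it was 0.49 against 0.84 to 1.05 in the other TBI libraries.

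**Figure D4:**
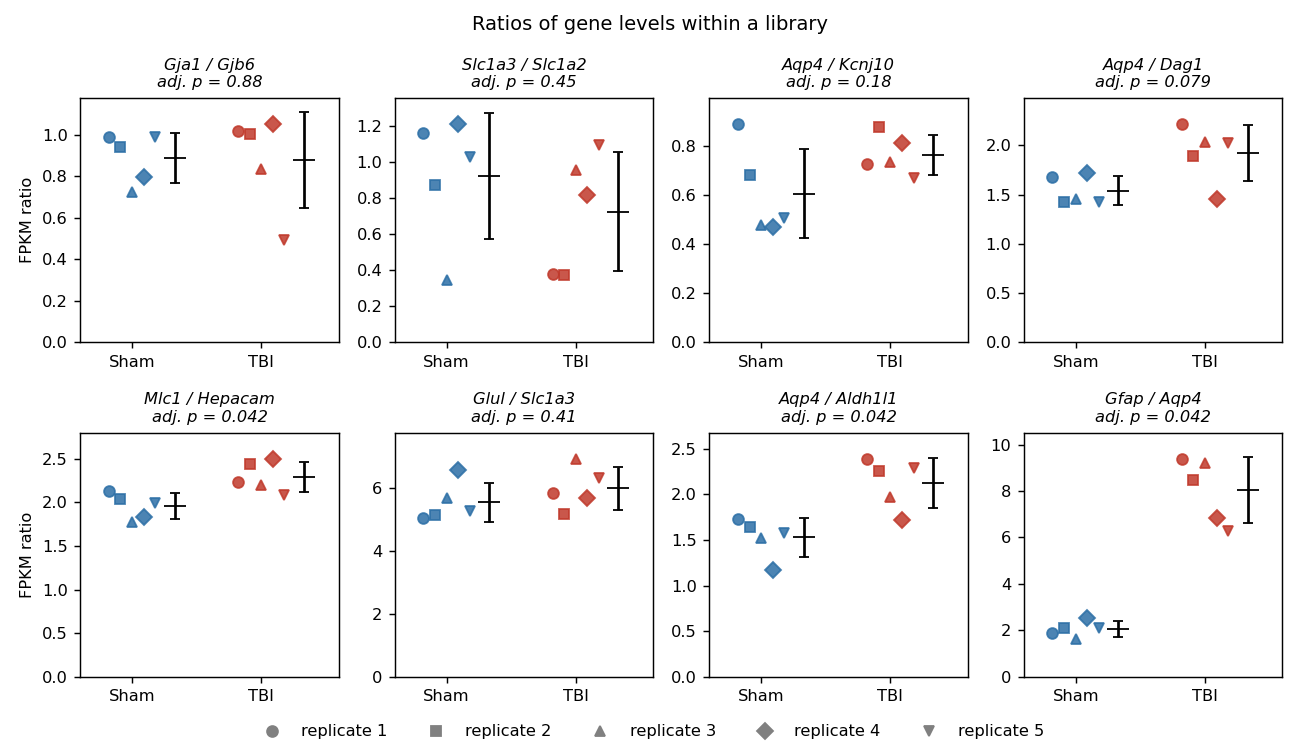
Ratio of FPKM values of a pair of genes within a library (y axis from 0), with 1 symbol per library and the mean and SD beside them; adjusted p-values are from exact permutation tests over 8 ratios. The Gfap to Aqp4 ratio lies between 1.63 and 2.55 in Sham and between 6.30 and 9.39 in TBI.

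Of 12 astrocyte identity genes, which mark the cell type and are not known for these transport functions, 1 rose and 0 fell, with a median log2 change of 0.15. Of these changes 11 were above 0, and 4 of the 12 genes did not overlap between the groups. Over all tested genes 47.3% of changes were above 0, 3.57% were called higher and 6.33% did not overlap. The summed level of the 12 genes was 717 to 778 FPKM in TBI and 588 to 695 FPKM in Sham, also without overlap. The gene that rose was Ppp1r3c, a glycogen-targeting subunit of protein phosphatase, from 12.99 ± 1.11 to 16.7 ± 0.90 FPKM (edgeR adjusted p = 0.016). Aldh1l1 was at 15.1 ± 1.18 against 12.3 ± 0.94 FPKM without overlap and did not pass (edgeR adjusted p = 0.087). Averaged over the 12 genes, log2 FPKM stood at 4.85 ± 0.06 for TBI and 4.68 ± 0.09 for Sham, 0.17 apart with overlapping groups. Relative to that mean, the log2 level of Aqp4 was 0.14 ± 0.20 in TBI and -0.46 ± 0.20 in Sham, and that of Mlc1 was 1.11 ± 0.04 and 0.83 ± 0.07, both without overlap. Relative to the same mean, Dag1 differed by 0.29 with overlapping groups. The differences of Slc1a3, Gja1 and Gjb6 were -0.01, -0.02 and 0.04. These relative levels are a description, computed after the data were seen.

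Other genes of the same pathways were taken from 6 lists. Of their 73 genes, 68 were tested, 2 rose and 0 fell, or 2.94% against the 3.57% of all tested genes called higher. The median log2 change of the 68 was 0.06.

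Of 10 tested genes of the dystrophin complex, which joins dystroglycan to the cytoskeleton and includes the membrane-spanning sarcoglycans, 0 were called, with a median log2 change of 0.11 and changes from -0.06 to 0.22. The smallest p-values belonged to the sarcoglycans Sgce (edgeR adjusted p = 0.29) and Sgcb (edgeR adjusted p = 0.41), and Sgcb was at 17.3 ± 0.505 against 15.8 ± 0.747 FPKM without overlap. Of 9 genes of dystroglycan glycosylation, the step that makes it bind laminin, 0 were called, with a median log2 change of -0.03. Pomt1 (edgeR adjusted p = 0.53) and Pomk (edgeR adjusted p = 0.59) came nearest.

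Outside the cell, 1 of 13 basal lamina genes rose and 0 fell, with a median log2 change of 0.22. The gene that rose was Lamb2, a laminin chain of the vascular and pial basal lamina, from 4.02 ± 0.32 to 5.39 ± 0.33 FPKM without overlap (log2 change 0.39, edgeR adjusted p = 0.0087). The type IV collagen gene Col4a2 was at 13.7 ± 1.85 against 10.9 ± 1.09 FPKM and did not pass (edgeR adjusted p = 0.14). The proteoglycan gene Agrn, another ligand of dystroglycan, was at 18.4 ± 1.56 against 18.2 ± 2.13 FPKM (edgeR adjusted p = 0.95).

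In the glutamate and glutamine cycle 1 of 14 genes rose and 0 fell, with a median log2 change of 0.08. Glud1, which encodes the mitochondrial glutamate dehydrogenase, went from 46.7 ± 2.82 to 55.8 ± 3.04 FPKM without overlap (log2 change 0.22, edgeR adjusted p = 0.049). The astrocytic glutamine exporter Slc38a3 was at 14.8 ± 2.85 against 11.6 ± 1.03 FPKM (edgeR adjusted p = 0.28). The neuronal transporter gene Slc1a1 was at 12.7 ± 0.45 against 13.4 ± 0.90 FPKM (edgeR adjusted p = 0.38).

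Of 9 tested genes for other connexins, pannexins and a junction scaffold, 0 were called, with a median log2 change of 0.03. The third astrocytic connexin gene, Gjb2, was at 5.50 ± 1.24 against 4.49 ± 0.73 FPKM (edgeR adjusted p = 0.53), and the scaffold gene Tjp1, which had the smallest p, at 13.3 ± 0.91 against 11.2 ± 1.08 FPKM (edgeR adjusted p = 0.21). Gjc3, a connexin gene of oligodendrocytes, was at 10.7 ± 2.20 against 11.03 ± 1.86 FPKM (edgeR adjusted p = 0.88). Water, ion and volume transport genes had 0 called of 13 tested, with a median log2 change of -0.06. Kcnj16, the partner subunit of the Kcnj10 channel, was at 6.01 ± 1.29 against 6.10 ± 0.58 FPKM (edgeR adjusted p = 0.90). The potassium channel gene Kcnk1, at 38.1 ± 2.52 against 41.5 ± 3.34 FPKM, had the smallest p of the list (edgeR adjusted p = 0.33).

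**Figure D5:**
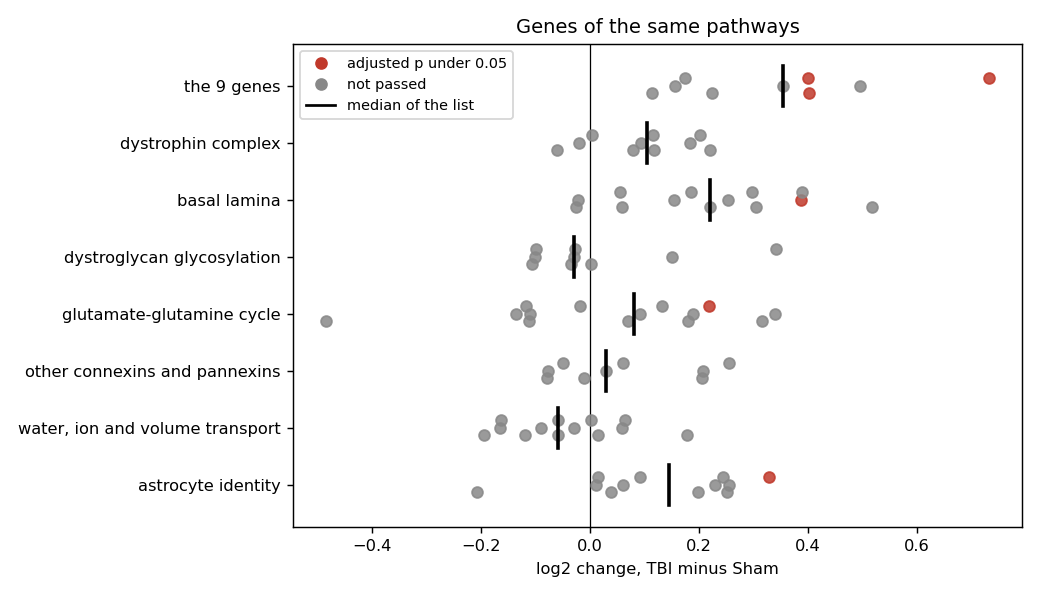
Log2 change between TBI and Sham (x axis) of each tested gene of the 9 and of 7 lists (rows); red points passed the edgeR test and black bars are medians. The 9 genes have a median of 0.35, and the list medians run from -0.06 to 0.22.

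By the distance between centred log2(FPKM + 1) profiles over the 10 libraries, among 14082 genes of at least 1 FPKM, the genes most like Aqp4 were Prkcd, Cd86 and Vav1 (root mean square differences 0.08, 0.09 and 0.10, where Aqp4 itself varies by 0.40). Cd86 went from 0.56 ± 0.11 to 1.77 ± 0.45 FPKM, and in TBI replicate 4, where Aqp4 was lowest of the TBI libraries, it was at 1.03 FPKM. Those most like Mlc1 were Sdc4, Plpp3 and Ltbr (0.05, 0.08 and 0.08, where Mlc1 varies by 0.24). Plpp3, a lipid phosphatase gene, went from 64.0 ± 2.59 to 84.2 ± 3.64 FPKM and Sdc4, a membrane proteoglycan gene, from 15.9 ± 1.93 to 21.3 ± 1.33 FPKM, both called higher (edgeR adjusted p = 0.0017 and 0.028). Prkcd, Cd86, Vav1 and Ltbr were called higher as well (edgeR adjusted p = 0.0081, 0.0014, 0.0017 and 0.022). The profiles include the step between the groups, so genes near a called gene tend to be called too, and their calls are no separate support. The scale also shrinks changes at low levels. The edgeR log2 changes of Cd86 and Vav1 were 1.63 and 1.13, against 0.73 for Aqp4. Among those most like Dag1 were Pcdhgc3 and Cdc42se1 (0.08 and 0.10, where Dag1 varies by 0.26), which did not pass (edgeR adjusted p = 0.062 and 0.11).

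Some marker lists of other cell types and states moved with the groups and others did not. The part of all these cells in the results of the 9 genes was not tested unless stated. All 6 tested reactive astrocyte genes rose, with a median log2 change of 1.86, and their summed level was 201 to 400 FPKM in TBI and 38.6 to 54.1 FPKM in Sham. Of 6 microglial genes 5 rose, with a summed level of 139 to 262 FPKM in TBI and 67.1 to 75.3 FPKM in Sham. TBI replicate 4 had the lowest TBI sum of both lists, at 201 and 139 FPKM. Of 5 meningeal fibroblast genes 3 rose, with sums of 11.9 to 21.6 FPKM and 6.43 to 9.46 FPKM. Of 5 monocyte and macrophage genes 3 were tested and 1 rose, with sums of 27.8 to 106 FPKM and 5.97 to 7.17 FPKM, with Lyz2 the most abundant. Endothelial genes rose in 1 of 6, with sums of 62.7 to 74.9 FPKM and 57.5 to 65.7 FPKM. Of 7 neuronal, 6 oligodendrocyte and 4 pericyte genes 0 were called. Their sums were 923 to 1039 FPKM in TBI and 971 to 1106 FPKM in Sham for neurons, 434 to 727 FPKM and 452 to 685 FPKM for oligodendrocytes, and 55.9 to 70.1 FPKM and 54.5 to 64.4 FPKM for pericytes. No gene of these marker lists was at 0 in all libraries.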

How the data were processed

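Per the labels' protocols, TRIzol-extracted total RNA of mouse cerebral cortex was read on an Illumina NovaSeq as pairs of 150 bases. The submitters' processing notes list HISAT2, StringTie, cutadapt 1.9 and the mm10 build, without roles; the counting step and annotation release are not given in the sources used here. Groups and replicate numbers come from the sample titles, and 0 sample columns were left unused. The deposited FPKM values were scaled by transcript length and library size by the authors, and the fill value of 0.0001 was read as 0. The deposited estimated counts are whole numbers per gene; of values from 1 to 12, 42.6% are multiples of 4 against 25% for an even spread, so about 4 counts appear to stand for 1 fragment. For the 9 genes, counts and FPKM differed only by a gene factor and a library factor, to within 0.035%. No pair of libraries held identical counts.

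Genes with at least 0.5 FPKM in at least 5 of 10 libraries were tested. Counts were compared with edgeR 4.0.16 in R 4.3.3 (TMM scaling, a two-sided quasi-likelihood test with group as the one term), with Benjamini-Hochberg adjustment over all tested genes. SE was derived from the log2 change and its F statistic, and intervals built from it are approximate. The tests were run on simulated data first. Alternatives were other filters, DESeq2 size factors, DESeq2 1.42.0, limma 3.58.1 on log2 FPKM or TPM, libraries left out, and the replicate number as a block. Same-numbered libraries did not deviate together in every pair. This cannot show whether the numbers pair the libraries, and the labels do not say. The 9 genes, the lists and the ratios were chosen with earlier results of these data known. Named genes were the 9, per list up to 4 called genes by size of change, or 2 by smallest p where none was called, the 3 nearest profiles of each called gene, and both genes of each ratio; other genes were named after their values were seen. Of the genes this rule names, those in the marker lists of reactive astrocytes and other cell types are mostly given only within counts and sums, and a nearest profile is not reported here. The nearest profile to Slc1a2, which was not called, was added in that way.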

Additional observations from a re-analysis of the deposited data

Results flagged for a closer look

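Among 34 sets of 5 values, 1 for each gene or ratio in each group, 4 had a library set apart from the other 4 by more than the 95% critical value of Dixon's test; chance gives about 1 in 20. Aqp4 was at 24.1 FPKM in TBI replicate 4, below 33.4 to 34.6 FPKM in the other TBI libraries. In the same library the reactive astrocyte and microglial sums were the lowest of the TBI group. Slc1a2 was at 153 FPKM in Sham replicate 3, above 44.9 to 65.0 FPKM in the other Sham libraries. Glul was at 357 FPKM and Gjb6 at 19.8 FPKM in Sham replicate 4, each above the other Sham libraries.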

How the results depend on the processing

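Aqp4 was called higher under every alternative run, and Mlc1 under all but the replicate block. Under the block, edgeR called 373 genes higher and 29 lower and 1 of the 9 genes (Aqp4), with log2 changes of 0.41 for both Mlc1 (adjusted p = 0.059) and Dag1 (adjusted p = 0.066). Only 2 of 5 same-numbered pairs had correlated deviations over 0.1, and not every library correlated best with its own number. Dag1 lost its call without a filter (0.40, adjusted p = 0.078), with a filter of 2 FPKM (0.41, adjusted p = 0.052), with DESeq2 size factors (0.40, adjusted p = 0.051) and in limma on log2(TPM + 1) (0.46, adjusted p = 0.0504). Glul gained one in that last fit (0.28, adjusted p = 0.040). The count of higher genes was 582, and 337 with the 2 FPKM filter, which tests fewer genes. The count of lower genes was 77, and 43 without a filter, 48 with 2 FPKM, 229 in DESeq2, 42 and 39 in limma on log2(FPKM + 1) and log2(FPKM + 0.1), and 27 on TPM. Without TBI replicate 1 and Sham replicate 3, 324 genes were higher and 19 lower, with Aqp4 and Mlc1 still called and Dag1 not (0.42, adjusted p = 0.15). Leaving out 1 library at a time gave 441 to 659 higher and 37 to 84 lower genes, with 0.32 to 0.45 for Dag1. The same gave log2 ratio differences of 0.19 to 0.26 for Mlc1/Hepacam, 0.38 to 0.55 for Aqp4/Aldh1l1, 1.89 to 2.05 for Gfap/Aqp4, 0.26 to 0.41 for Aqp4/Dag1, 0.30 to 0.53 for Aqp4/Kcnj10 and -0.13 to 0.14 for Gja1/Gjb6. The last turned to 0.14 without TBI replicate 5. With 4 against 5 libraries the smallest exact permutation p is 0.0079, as with 5 against 5. Aqp4/Dag1 (0.41, adjusted p = 0.021 without TBI replicate 4) and Aqp4/Kcnj10 (0.53, adjusted p = 0.032 without Sham replicate 1) gained calls. Permuting signs within same-numbered pairs kept differences of 0.23, 0.48 and 1.97 for Mlc1/Hepacam, Aqp4/Aldh1l1 and Gfap/Aqp4, and each had an adjusted p of 0.17, since 5 pairs cannot go below 0.0625 unadjusted. Where no reason is given, the cause was not tested.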

Other observations

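Aqp1 and Trpv4, a water channel and an osmosensitive cation channel gene, lay below the expression filter. Aqp1, known from choroid plexus epithelium, had 3.74 FPKM in TBI replicate 1, the library with the high Ttr level, and 0.30 to 0.46 FPKM in the other TBI libraries and 0.04 to 0.26 FPKM in Sham. Trpv4 had 1.01 FPKM in TBI replicate 1, and 0.32 to 0.52 FPKM in the other TBI libraries and 0.21 to 0.42 FPKM in Sham.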
